A study of Mus musculus with 2 samples.

Results

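The 10 genes described here encode transcription factors that set and hold the differentiation states of T cells: Tbx21, Eomes, Bcl6, Tcf7, Lef1, Id2, Id3, Prdm1, Zeb2 and Runx3. They were chosen by name, as the rows of the deposited gene table that carry these symbols, and all 10 were found among its 55246 loci. Total RNA was sequenced from Treg cells, the CD4 regulatory T cells whose identity rests on the factor Foxp3. The cells came from female mice and from the lamina propria of the colon, a connective tissue layer beneath the epithelium. By the labels there is 1 library of wild-type cells (WT) and 1 library of cells whose Foxp3 allele, written Foxp3∆2, lacks exon 2 (Exon2KO). The strain, the age, the way the allele was made, the sort, and whether 1 mouse or several gave each library are not given in the sources used here. Neither genotype was replicated, so the spread between samples is unknown and every interval below covers counting error in these 2 libraries alone.

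T cell states are held by factors that often work in opposing pairs. T-bet (Tbx21) and EOMES are related T-box factors of type 1 and cytotoxic programmes, and ZEB2 and RUNX3 act with them in effector and tissue-resident T cells. TCF-1 (Tcf7) and LEF-1 are related HMG-box factors of naive and stem-like T cells, ID2 and ID3 bind E proteins and keep them off DNA, and BCL6 and BLIMP-1 (Prdm1) repress each other in follicular against effector differentiation. In gut Treg cells BLIMP-1 is known for its tie to the effector state and to interleukin 10.

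The libraries held 16281133 (WT) and 15412425 (Exon2KO) reads in genes. Reads of Foxp3 itself numbered 6991 in WT and 20946 in Exon2KO (log2 ratio 1.56, 95% interval 1.52 to 1.60), and a count over the whole gene does not test the loss of 1 exon. The Treg markers Ctla4 (79358 and 132229 reads) and Il2ra (2968 and 2370) were present in both libraries. A further Treg marker, Ikzf2, which encodes Helios, had 8476 and 440 reads (log2 ratio -4.29) and was called lower. RNA of other cells was present too. The summed level of 7 plasma cell genes was 62430 CPM (counts scaled to the library size) in WT and 53270 in Exon2KO, that of 15 epithelial genes 85.1 and 420.3, and that of 9 T cell markers 6631 and 4958. In bulk RNA, fewer cells of a type and less RNA per cell cannot be told apart, and this holds for every difference below.

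Lef1 and Zeb2 were the genes of the set that moved most, in opposite directions. Genes with 10 or more reads in the 2 libraries combined (17363 genes) entered an exact binomial test, in which the scaled library sizes set the expected split of reads. A gene was called where the adjusted p-value lay under 0.05 and the ratio was 2-fold or more. Of the 10 genes, 9 had enough reads to be tested. Among these, 1 was called higher in Exon2KO (Zeb2) and 1 lower (Lef1). Over all genes tested, 7.2% were called higher and 6.61% lower. Over the 927 tested genes to which the authors' table assigns a transcription factor family, 6.58% were called higher and 6.04% lower. All 9 genes had an adjusted binomial p-value below 0.05 whatever the fold. That was true of 7173 of the 17363 genes, so it says little about these 9. At a 1.5-fold threshold 3 genes were called higher (Zeb2, Prdm1 and Runx3) and 4 lower (Lef1, Tcf7, Id3 and Tbx21), where 10.5% and 10.6% of all genes tested were called. At 4-fold 0 of the 10 genes were called higher and 1 lower (Lef1), beside 2.87% and 2.35% of all genes. When libraries were scaled to 9 T cell markers, an alternative added after the data were seen, 3 of the 10 genes were called higher (Zeb2, Prdm1 and Runx3) and 1 lower (Lef1). That scaling raised the ratio of all genes, and 14.2% of them were then called higher and 3.97% lower. Total counts as the scaling called 8.53% of all genes higher and 5.66% lower. The median log2 ratio (Exon2KO over WT) of the 9 genes was -0.54 with quartiles of -0.81 and 0.61. Over all genes tested it was 0.0035, with quartiles of -0.33 and 0.35. The factors of naive, follicular and type 1 cells (Lef1, Tcf7, Id3, Tbx21 and Bcl6) had ratios below 0, and Zeb2, Prdm1, Runx3 and Id2 had ratios above 0.

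**Figure D1:**
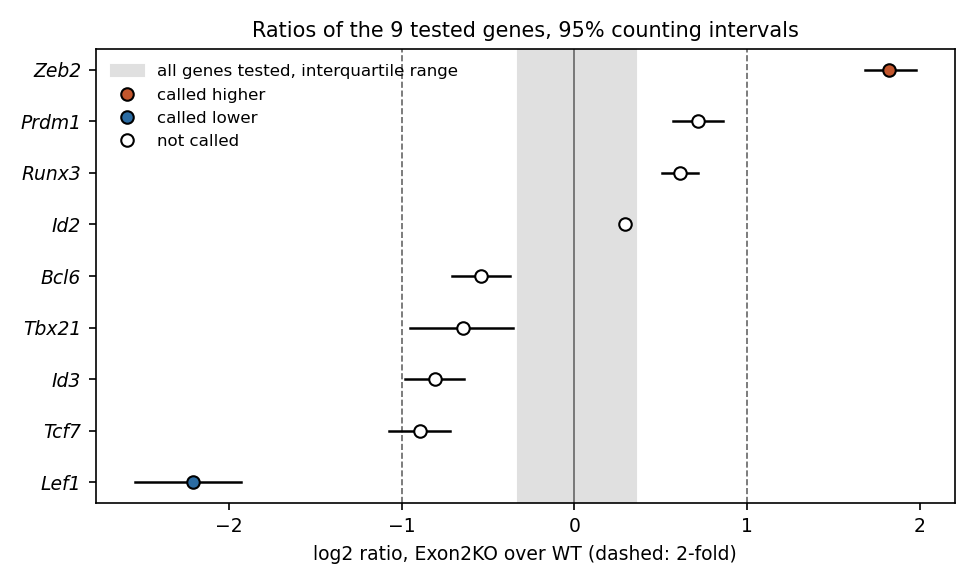
Log2 ratio of reads, Exon2KO over WT, for the 9 tested genes, with 95% counting intervals as bars, dashed lines at 2-fold and a grey band for the interquartile range of all genes tested. Zeb2 (1.82) and Lef1 (-2.21) lie beyond the dashed lines, the other 7 between them, and of these Id2 (0.29) alone lies inside the grey band.

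Sequences at a start of Lef1, Zeb2, Prdm1 and Tcf7 are shown because Lef1 and Zeb2 are the genes called, an antisense locus crosses the printed Lef1 and Tcf7 stretches, and Prdm1 and Tcf7 hold the forkhead letters. The first 3 lines give the 250 bases before a start, read along the gene from RefSeq (build GRCm38.p6), and the last line gives 27 bases around a start of Tcf7.
Lef1 chr3:131110073-131110322 (plus strand): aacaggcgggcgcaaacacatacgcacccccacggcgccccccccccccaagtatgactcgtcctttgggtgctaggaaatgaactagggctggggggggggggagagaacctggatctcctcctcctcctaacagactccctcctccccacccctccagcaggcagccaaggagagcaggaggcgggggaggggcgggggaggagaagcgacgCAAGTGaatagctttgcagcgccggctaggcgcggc
Zeb2 chr2:45117443-45117692 (minus strand): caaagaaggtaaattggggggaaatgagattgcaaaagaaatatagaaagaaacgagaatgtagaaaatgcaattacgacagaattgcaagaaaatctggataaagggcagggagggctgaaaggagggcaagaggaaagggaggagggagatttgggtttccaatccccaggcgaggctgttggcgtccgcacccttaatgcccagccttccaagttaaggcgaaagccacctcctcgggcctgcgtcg
Prdm1 chr10:44458749-44458998 (minus strand): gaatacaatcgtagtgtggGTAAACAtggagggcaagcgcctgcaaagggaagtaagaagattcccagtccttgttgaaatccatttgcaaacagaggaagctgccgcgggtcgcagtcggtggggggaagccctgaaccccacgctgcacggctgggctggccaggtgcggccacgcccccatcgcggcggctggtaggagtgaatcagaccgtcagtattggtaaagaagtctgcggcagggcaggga
Tcf7 chr11:52282578-52282604 (minus strand): ctttataggaGTAAACAgacccccgcc
Capitals mark an E-box (CANNTG) in the Lef1 line and the forkhead letters TGTTTAC, read from the opposite strand as GTAAACA, in the Prdm1 and Tcf7 lines. The E-boxes of the Prdm1 line are left in lower case. In the Zeb2 line none of the 7 motifs searched occurred.

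Lef1 (ENSMUSG00000027985, chr3:131110471-131224356, plus strand, GRCm38) encodes LEF-1, which shares its target sites and its partner β-catenin with TCF-1. It had 498 reads in WT and 108 in Exon2KO, or 31.7 (95% Poisson interval 29.0 to 34.6) and 6.76 (5.54 to 8.16) CPM. The Exon2KO library was the lower one, and the 2 intervals did not overlap. The log2 ratio was -2.21 (-2.55 to -1.93), a 4.63-fold lower level. Only 4.28% of the genes tested had a ratio this far from 0 or farther. Among the 566 transcription factor genes with at least 100 reads in 1 library Lef1 had the fourth lowest ratio. In the authors' deposited table Lef1 has a log2 fold change of -2.23 and an adjusted p-value of 6.73e-05. The relative spread between samples, called the biological coefficient of variation or BCV, has to be assumed here. For Lef1 the adjusted p of edgeR's exact test was 5.21e-05 at a BCV of 0.2 and 0.35 at a BCV of 0.4. Of all genes tested, 3.33% were called higher and 3.09% lower at a BCV of 0.2, and 0.495% and 0.449% at a BCV of 0.4.

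An antisense locus crosses the start of Lef1. Gm43352 (chr3:131109026-131112090, minus strand) had 20 reads in WT and 0 in Exon2KO, at least 6.79-fold lower against 3 reads (95% counting limit of the log2 ratio nearer to 0, -2.33), and was called lower as Lef1 was. It shares 1208 exon bases with Lef1, and the use of strand in the counting is not given in the sources used here, so reads of the pair in shared sequence cannot be told apart. The printed Lef1 window lies inside this locus and holds 1 E-box, the 6-base site of E proteins and ZEB factors, 36 bases before the start. Lef1 lies on the same strand as Gm42449, which had 6 and 1 reads and was named after its values were seen.

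Tcf7 (ENSMUSG00000000782, chr11:52252371-52283014, minus strand) encodes TCF-1, a factor of early, naive and stem-like T cells. It had 750 reads in WT and 410 in Exon2KO, or 47.8 (44.4 to 51.3) and 25.6 (23.2 to 28.3) CPM. Tcf7 was thus lower in Exon2KO, as Lef1 was, but by less. Its log2 ratio was -0.89 (-1.08 to -0.72), 1.86-fold lower and short of the 2-fold call. In the authors' deposited table Tcf7 has a log2 fold change of -0.90 and an adjusted p-value of 0.305. The reads of Tcf7 relative to those of Lef1 went from 1.51 in WT to 3.80 in Exon2KO. This log2 difference of 1.33 (0.99 to 1.68) does not depend on library scaling and shows unequal change of the 2 genes. Gm26551, a non-coding locus on the same strand that overlaps the Tcf7 gene body without sharing exon bases, had 28 and 8 reads and was called lower (log2 ratio -1.61, -3.18 to -0.66). The antisense locus A630014C17Rik, named after its values were seen, crosses the Tcf7 start and had 7 and 2 reads.

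The HMG-box factors share partners and targets that were also measured. Of 9 tested TCF and LEF partners (co-repressors of the Groucho family, β-catenin and related factors), 1 was called higher and 0 lower, with a median of -0.19. The gene called was Tle2 (53 and 199 reads, log2 ratio 1.84), and Aes, the partner with the most reads, had 5577 and 4979. Of 11 tested genes of naive and stem-like cells tied to TCF-1 and LEF-1, 0 were called higher and 4 lower, and their median was -0.67. Those called included Nsg2 (105 and 28 reads, -1.86) and S1pr1, the receptor for exit from tissue (1364 and 462, -1.58). Ccr7, which had the most reads in this list, had 13057 and 8082 (-0.72) and was not called. The lists overlap in a few genes, and no test was made of a list as a whole.

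Id3 and Id2 had ratios on opposite sides of 0. Id3 (ENSMUSG00000007872, chr4:136143497-136145755, plus strand) encodes the E protein inhibitor of naive and follicular-type T cells. It had 776 reads in WT and 451 in Exon2KO, or 49.4 (46.0 to 53.1) and 28.2 (25.7 to 30.9) CPM. The Exon2KO library was lower, with a log2 ratio of -0.81 (-0.98 to -0.64), or 1.75-fold, and Id3 was not called. Id2 (ENSMUSG00000020644, chr12:25093799-25097140, minus strand) encodes the related inhibitor of effector T cells and innate lymphoid cells. It had 45988 reads in WT and 57384 in Exon2KO, or 2930 (2903 to 2957) and 3589 (3560 to 3619) CPM. Its log2 ratio was 0.29 (0.27 to 0.31), 1.23-fold higher in Exon2KO, the narrowest interval of the set. Depth does not limit that value, but 55.1% of the genes tested had a ratio at least as far from 0. The reads of Id2 relative to those of Id3 were 59.3 in WT and 127.2 in Exon2KO, a 2.15-fold higher ratio (log2 difference 1.10, 0.93 to 1.27).

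By length-scaled level Id2 stood far above the other genes of the set. The authors' FPKM (a level scaled to the length of the gene and to depth) of Id2 was 1196 in WT and 1479 in Exon2KO. Among the 1506 genes with a transcription factor family it ranked second in both libraries, after Junb. Among 22046 protein-coding genes Id2 ranked 34 in WT and 19 in Exon2KO. Its E protein partners were measured as well. Of 5 tested genes (E proteins and the other ID genes) 0 were called higher and 1 lower. The one called was Id4, on 9 and 1 reads, and it was not called with total counts or with DESeq2's size factors as the scaling. The E protein gene with the most reads, Tcf12, had 643 and 840 (0.36), Tcf3 had 556 and 484 (-0.23), and Id1 had 96 and 155 (0.65), none of them called.

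**Figure D2:**
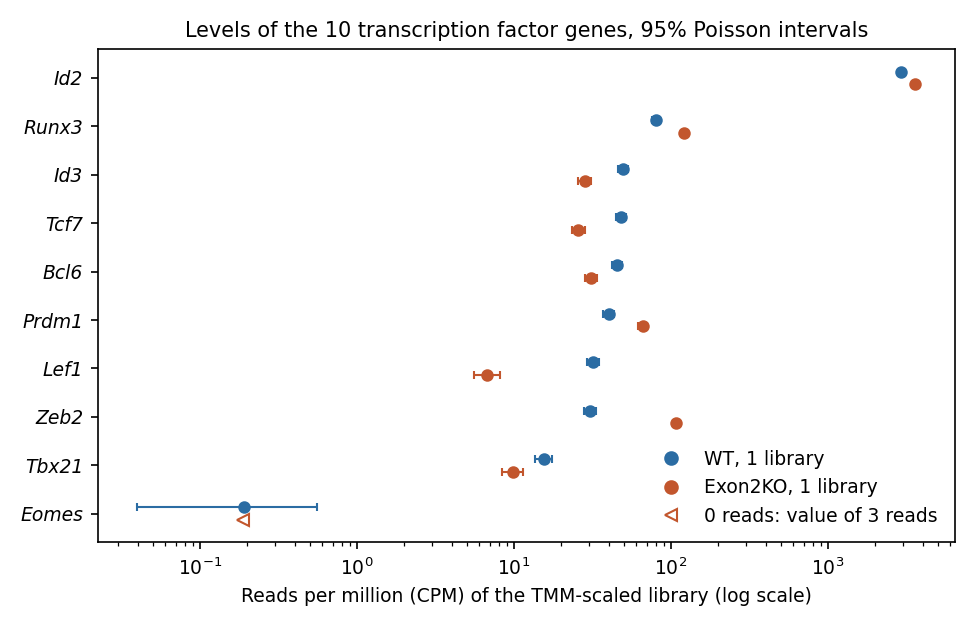
CPM of the TMM-scaled library (log axis) for the 10 genes in WT (blue) and Exon2KO (orange), 1 library each, with 95% Poisson intervals as bars. The orange points lie left of the blue ones for Id3, Tcf7, Bcl6, Lef1 and Tbx21 and right of them for Id2, Runx3, Prdm1 and Zeb2, and the open triangle puts Eomes in Exon2KO, with 0 reads, at the value of 3 reads.

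Bcl6 and Prdm1, which encode mutual repressors, lay on opposite sides of 0. Bcl6 (ENSMUSG00000022508, chr16:23965052-23988852, minus strand), the factor of follicular T cells and germinal centre B cells, had 707 reads in WT and 495 in Exon2KO, or 45.1 (41.8 to 48.5) and 31.0 (28.3 to 33.8) CPM. Its log2 ratio was -0.54 (-0.71 to -0.37), 1.45-fold lower in Exon2KO and not called. Prdm1 (ENSMUSG00000038151, chr10:44437177-44528501, minus strand), which encodes BLIMP-1, the factor of effector Treg cells and plasma cells, had 628 reads in WT and 1052 in Exon2KO, or 40.0 (36.9 to 43.3) and 65.8 (61.9 to 69.9) CPM. The Exon2KO library was the higher one, with a log2 ratio of 0.72 (0.57 to 0.86), 1.64-fold higher and not called. The reads of Bcl6 relative to those of Prdm1 were 1.13 in WT and 0.471 in Exon2KO. Bcl6 thus had more reads than Prdm1 in WT and fewer in Exon2KO, and the ratio was 2.39-fold lower (log2 difference -1.26, -1.48 to -1.04). Per length the authors' FPKM of Bcl6 and Prdm1 were 6.69 and 7.14 in WT, with overlapping counting intervals (6.21 to 7.20 and 6.59 to 7.72), and 4.64 and 11.9 in Exon2KO.

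Other cells express these genes. Of the 7 plasma cell genes, Sdc1 was called higher (510 and 1213 reads), while the median of the 7 was -0.30 and their summed level was lower in Exon2KO. All 5 tested B cell genes had ratios below 0 (2 called lower, 0 higher, summed level 134.9 and 98.3 CPM). The 3 germinal centre B cell genes had 32 and 24 reads in all, with Gcsam called lower on 14 and 0 reads. The part of these cells in the Bcl6 and Prdm1 values was not tested. The printed Prdm1 window belongs to a start inside the deposited gene, 69753 bases from its outer end, and holds the forkhead letters 231 bases before that start.

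The genes tied to each repressor had ratios on both sides of 0, and their regulation by it was not tested. Of 12 tested follicular genes tied to BCL6, 1 was called higher and 5 lower, with a median of -0.58. Pdcd1, the receptor PD-1, had 17272 and 2520 reads (-2.80), Cxcr5, the follicle homing receptor, 230 and 48 (-2.24), Sh2d1a 1611 and 714 (-1.20) and Btla 464 and 206 (-1.19). Il21 was called higher on 2 and 13 reads, and Icos, with the most reads of the list, was not called (0.43). Those called lower numbered 2, not 5, with the T cell marker scaling, and also 2 (with 0 higher) by edgeR's exact test at a BCV of 0.2. Of 10 tested effector Treg genes tied to BLIMP-1, 1 was called higher and 3 lower, with a median of 0.34. Il10 was the gene called higher (14174 and 39614 reads, 1.46), and 2 were called higher with the T cell marker scaling. Those called lower were Ccr8 (5168 and 378, -3.79), Il1rl1, the interleukin 33 receptor (5655 and 676, -3.09), and Klrg1 (6483 and 778, -3.08), receptors of effector and tissue Treg cells. Among the 4 tested relatives and partners of BCL6 and BLIMP-1 0 were called, and Ncor1, with the most reads, had 4101 and 5286 (0.34).

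**Figure D3:**
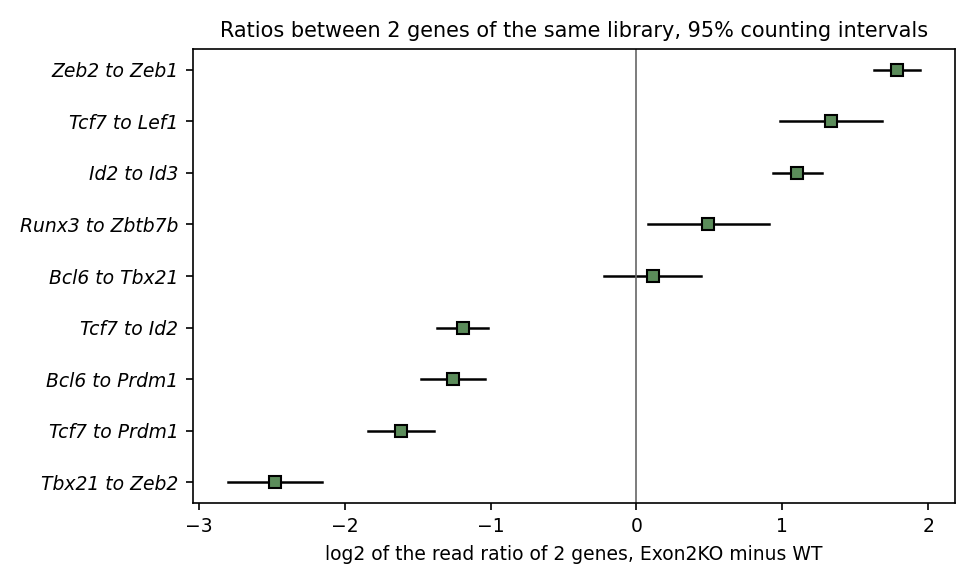
Change of the read ratio between 2 genes of the same library, as log2 in Exon2KO minus WT, with 95% counting intervals. The ratio of Tbx21 to Zeb2 moved most (-2.48), Zeb2 to Zeb1 moved most upward (1.79), and the interval of Bcl6 to Tbx21 alone includes 0.

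Zeb2 (ENSMUSG00000026872, chr2:44983632-45117395, minus strand) encodes a zinc finger repressor known from terminal effector T cells and natural killer cells, and from myeloid cells. It had 477 reads in WT and 1725 in Exon2KO, or 30.4 (27.7 to 33.3) and 107.9 (102.9 to 113.1) CPM. The intervals did not overlap, and Zeb2 rose by a log2 ratio of 1.82 (1.68 to 1.98), 3.54-fold. A ratio at least as far from 0 was found in 6.58% of the genes tested, and among the 566 transcription factor genes with at least 100 reads in 1 library Zeb2 had the fifth highest. In the authors' deposited table Zeb2 has a log2 fold change of 1.83 and an adjusted p-value of 0.00112. For Zeb2 the adjusted p of edgeR's exact test was 0.000867 at a BCV of 0.2 and 0.662 at a BCV of 0.4.

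The relative of ZEB2 did not share this difference. Zeb1 had 4568 and 4788 reads (log2 ratio 0.04), and the reads of Zeb2 relative to Zeb1 went from 0.104 to 0.360, 3.45-fold higher (log2 difference 1.79, 1.63 to 1.94). Of the 3 tested genes of the ZEB list, Zeb1 and the partners Ctbp1 and Ctbp2, 0 were called. Over Zeb2 runs the antisense locus Zeb2os (chr2:45110707-45114087, plus strand), with 0 reads in WT and 7 in Exon2KO, at least 2.29-fold higher against 3 reads (lower 95% counting limit of the log2 ratio 0.50), and 653 exon bases shared with Zeb2. Zeb2os and the microRNA locus Mir5129 inside Zeb2 (0 and 4 reads) were named after their values were seen. The outer Zeb2 start printed above lies outside Zeb2os, and none of the 4 RefSeq windows of Zeb2 holds an E-box. Markers of other cells that use Zeb2 were measured. The 13 myeloid and dendritic cell genes summed to 93.1 CPM in WT and 76.1 in Exon2KO, with Itgax at 0 reads in both. Within that list Zbtb46 was called lower (548 and 140 reads), while Lyz2 had 317 and 405 reads (0.32) and Cd68 168 and 243 (0.50), neither called. Without Zbtb46 the other 12 genes summed to 58.2 and 67.3 CPM, so the direction of the sum turned. Among the 10 tested genes of the list 4 had ratios above 0 and 6 below, with a median of -0.04. Cd14 had 122 and 116 reads, Xcr1 184 and 185, and C1qb 52 and 51. The part of these cells in the Zeb2 value was not tested. The 6 natural killer and type 1 innate lymphoid cell genes summed to 3.06 and 2.94 CPM, with Klra4 and Klra8 at 0 in both and Ncr1 called higher on 0 and 10 reads. Gamma-delta T cell genes summed to 13.3 and 81.7 CPM (5 of 7 called higher and 1 lower, with Trdc at 14 and 13 reads). Tcrg-C1 (123 and 1034 reads) carried most of that sum, and the other 6 genes summed to 5.42 and 17.0 CPM. The 9 stroma and endothelium genes summed to 75.6 and 71.5 CPM, with 3 of 8 tested called higher (Cdh5 on 0 and 15 reads, Vwf on 5 and 31 and Lum on 6 and 20) and 0 lower. The part of these cells in the Zeb2 value, and that of gamma-delta T cells in the Runx3 value, was not tested.

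Of the T-box factors Tbx21 was measured in both libraries and Eomes was at the limit of detection. Tbx21 (ENSMUSG00000001444, chr11:97098071-97115331, minus strand), which encodes T-bet, the factor of type 1 helper T cells, had 242 reads in WT and 157 in Exon2KO, or 15.4 (13.5 to 17.5) and 9.82 (8.34 to 11.5) CPM. The Exon2KO value was lower, with a log2 ratio of -0.64 (-0.95 to -0.36), or 1.56-fold, and Tbx21 was not called. Eomes (ENSMUSG00000032446, chr9:118478212-118486132, plus strand), the related factor of cytotoxic and memory cells, had 3 reads in WT and 0 in Exon2KO. Those 0 reads allow up to 0.188 CPM in Exon2KO, so no difference in Eomes was detectable at this depth. Tbx21 reads exceeded those of Eomes 80.7-fold in WT (on 3 Eomes reads) and at least 52.3-fold in Exon2KO. Reads of Tbx21 relative to Zeb2, a gene T-bet is known to act through, went from 0.507 to 0.0910, the widest shift of any pair (log2 difference -2.48, -2.80 to -2.15). The ratio of Bcl6 to Tbx21 reads was 2.92 in WT and 3.15 in Exon2KO, and the interval of the log2 difference (0.11, -0.22 to 0.44) includes 0.

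Among 11 tested type 1 genes tied to T-bet, 0 were called higher and 3 lower, with a median of -0.08. With total counts as the scaling 1 was called higher and 2 lower, and with the T cell marker scaling 2 higher and 2 lower. The chemokine Ccl5 had 1025 and 133 reads (-2.95), the receptor Cxcr3 2099 and 661 (-1.69) and Il18rap 1461 and 693 (-1.10). Ifng had 91 and 85 reads (-0.12), and Cxcr6, with the most reads, had 4734 and 9053 (0.91); neither was called.

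Runx3 (ENSMUSG00000070691, chr4:135120652-135177990, plus strand) encodes a Runt factor of cytotoxic and tissue-resident T cells. It had 1249 reads in WT and 1943 in Exon2KO, or 79.6 (75.2 to 84.1) and 121.5 (116.2 to 127.1) CPM. The Exon2KO library was higher, with a log2 ratio of 0.61 (0.51 to 0.71), 1.53-fold and not called. Its opponent in the CD4 lineage, ThPOK (Zbtb7b), had 94 and 104 reads, and the Runx3 to Zbtb7b ratio was 13.3 in WT and 18.7 in Exon2KO (log2 difference 0.49, 0.08 to 0.91). The 5 tested relatives and partners of RUNX3 included 0 called. Its relative Runx1 had 2014 and 2550 reads (0.31), and the common subunit Cbfb lay at -0.01. Gm16224, antisense to Runx3, had 7 reads in each library. The CD8 genes Cd8a (23 and 6 reads) and Cd8b1 (138 and 91) had fewer reads in Exon2KO, and gamma-delta T cell genes, as given above, a higher sum. With the T cell marker scaling Runx3 (1.03) and Prdm1 (1.13) passed the 2-fold call. Of the 9 markers behind it, 7 had ratios below 0 and 2 (Cd3e and Cd4) above. Cd2 had the highest level of the 9 (2089 CPM in WT and 1226 in Exon2KO), and the scaling was not tried without it. Under that scaling the log2 ratios below 0 lay nearer to 0, at -0.12 for Bcl6, -0.23 for Tbx21, -0.39 for Id3, -0.48 for Tcf7 and -1.80 for Lef1, and those of Id2 and Zeb2 were 0.71 and 2.24.

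Of 12 tested cytotoxic and terminal effector genes tied to EOMES, ZEB2 and RUNX3, 1 was called higher and 5 lower, with a median of -0.40. Gzma, which encodes granzyme A, had 5153 and 164 reads (-4.98), Klrg1 6483 and 778 (-3.08), and Itgae, the epithelial adhesion integrin CD103, 1926 and 312 (-2.64). Gzmk was called higher on 2 and 19 reads, and Gzmb, with the most reads, was not called (0.52). Zeb2 and Runx3 had ratios above 0, and whether either factor acts on these genes in these cells was not tested.

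**Figure D4:**
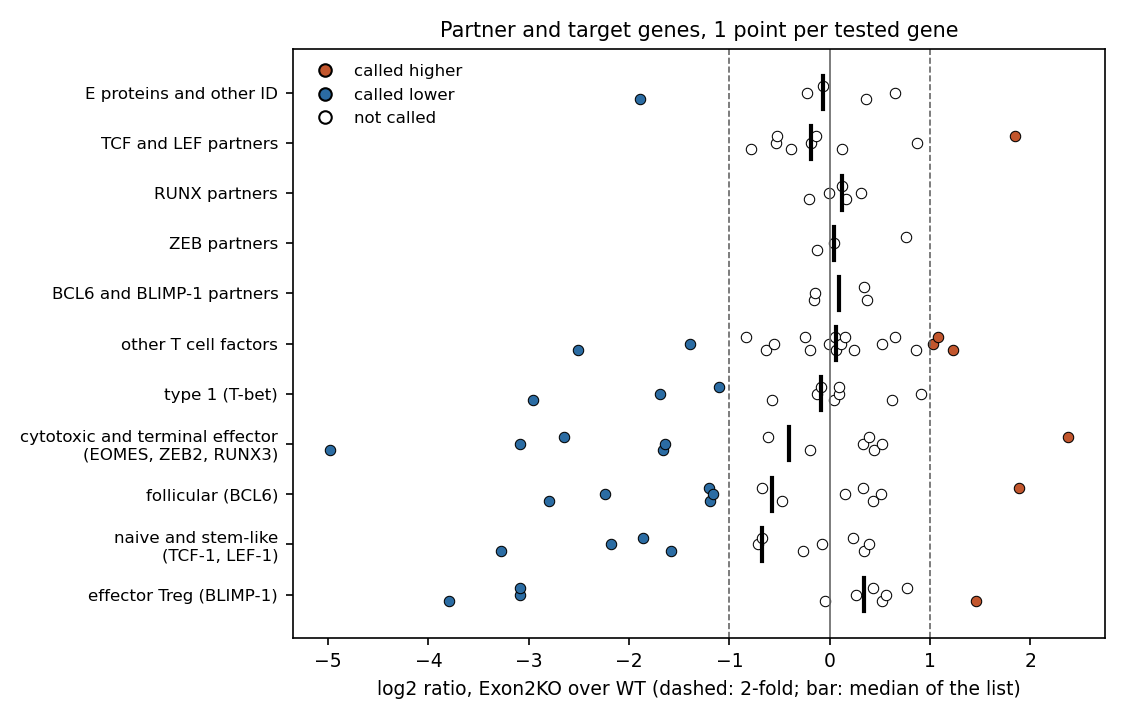
Log2 ratio, Exon2KO over WT, of each tested gene in 11 lists of partners and targets, coloured by call, with the median of each list as a bar and dashed lines at 2-fold. The 5 partner lists above hold 2 called genes in all, and the 4 lists of cytotoxic, follicular, naive and effector Treg genes hold most of the genes called lower.

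Over all 11 lists, each gene counted once, 96 genes were tested, 7 were called higher (7.29%, beside 7.2% of all genes tested) and 22 lower (22.9%, beside 6.61%), and the median was -0.07. With the T cell marker scaling, which called 14.2% of all genes higher and 3.97% lower, the counts were 14 and 16. The lists were chosen with earlier results of these data known, and all genes tested are not matched to them for level or cell type. The shares are thus a description and not a test of the lists. Other T cell factors, 19 tested, had 3 called higher (among them Ikzf3 at 1.08 and Maf at 1.03) and 2 lower (Gata3 at -2.51 and Tox at -1.39), with a median of 0.06. With the T cell marker scaling 5 of them were called higher and 1 lower, and at a BCV of 0.2 by edgeR's exact test 0 higher and 2 lower. By the main scaling Lef1 and Zeb2 moved by more than all of these except Gata3.

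The order of the 10 genes by length-scaled level differed between the libraries. By the authors' FPKM in WT it ran Id2 (1196), Id3 (27.5), Tcf7 (18.1), Runx3 (15.8), Prdm1 (7.14), Bcl6 (6.69), Tbx21 (6.17), Lef1 (3.59), Zeb2 (1.52) and Eomes (0.0458). In that order the neighbours Prdm1 and Bcl6, and Bcl6 and Tbx21, had overlapping counting intervals. In Exon2KO it ran Id2 (1479), Runx3 (24.4), Id3 (15.8), Prdm1 (11.9), Tcf7 (9.82), Zeb2 (5.44), Bcl6 (4.64), Tbx21 (3.97), Lef1 (0.772) and Eomes (0). There the intervals of Zeb2 (5.18 to 5.70) and Bcl6 (4.24 to 5.07) did not overlap, and those of Bcl6 and Tbx21 (3.37 to 4.64) did. Among the 1506 transcription factor genes Lef1 went from rank 327 to 635 and Tcf7 from 112 to 174, while Zeb2 went from 492 to 253 and Runx3 from 124 to 80. Zeb2 has 29 annotated transcripts in GENCODE M21 and Tbx21 has 1, and counts per gene do not resolve isoforms. The deposited length takes in all exon bases of a gene, 19942 for Zeb2 and 2488 for Tbx21. The order between genes depends on these lengths too, which the counting intervals do not cover.

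**Figure D5:**
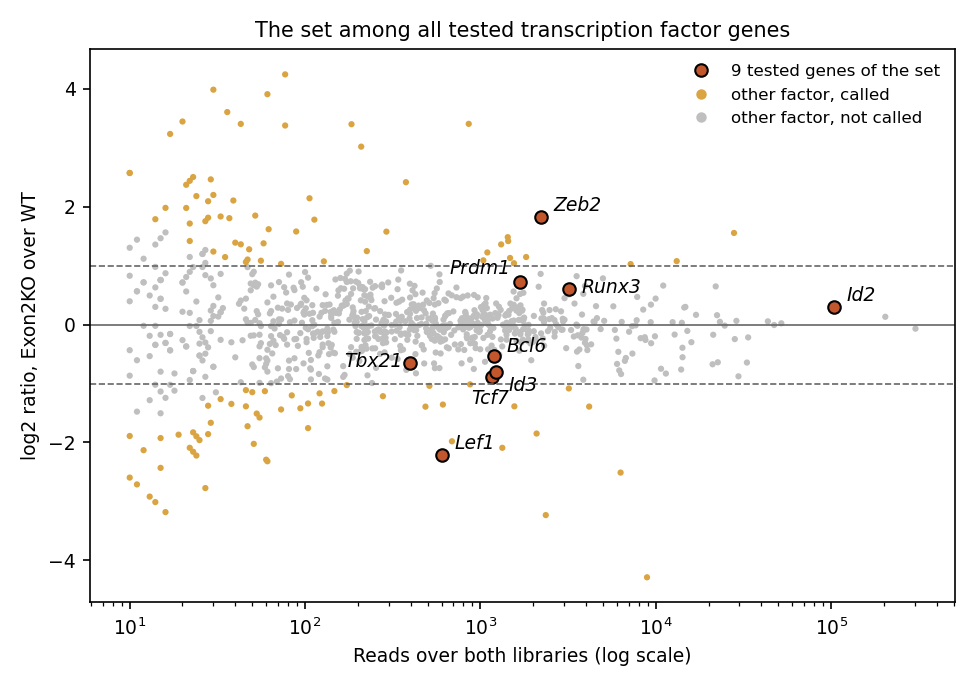
Log2 ratio, Exon2KO over WT, against reads over both libraries (log axis) for the 927 tested genes with a transcription factor family; large points are the 9 tested genes of the set and dashed lines mark 2-fold. Zeb2 and Lef1 lie beyond the dashed lines, and Id2 lies at the far right with 45988 and 57384 reads.

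The letters of 7 motifs were looked for on both strands in the 300-base windows (250 bases before and 50 after a start) of RefSeq, which held 19 windows of the 10 genes among 32851. E-boxes (CANNTG) were in 12 of the 19 windows and in 72.3% of all windows. Such a window was found for 7 of the 10 genes (Bcl6, Id2, Lef1, Prdm1, Runx3, Tbx21 and Tcf7). The TCF and LEF letters CTTTGA were in windows of Bcl6 and Lef1 (16.0% of all windows), and the RUNX letters TGTGGT in one of Runx3 (16.8%). The letters TTCNNNGAA of BCL6 and STAT factors were in windows of Bcl6 and Zeb2 (8.3%), and the forkhead letters TGTTTAC in those of Prdm1 and Tcf7 (3.65%). In Tcf7 the forkhead letters begin at base 2 after the start printed above, which lies 419 bases inside the deposited gene. The window at the outer start of Tcf7 does not hold them. The BLIMP-1 letters GAAAGTG (4.81%) and the T-box letters AGGTGTGA (1.28%) were in none of the 19 windows. A match is a run of letters and not a bound site, and no match says only that the letters are not in that window.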

How the data were processed

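Raw counts of reads per gene, as deposited by the authors, cover 1 WT and 1 Exon2KO library of colonic lamina propria Treg cells. Per the submitters' processing notes, HISAT2 2.0.5, StringTie 1.3.3b, featureCounts 1.5.0-p3, DESeq2 1.16.1 and build mm10 were named, with no settings. Per the labels' protocols, 1 µg of RNA from a column kit entered an NEBNext Ultra preparation. The annotation release and the use of strand are not given in the sources used here. The authors also deposited FPKM values, together with each gene's log2 fold change, p-value and adjusted p-value, whose test the table does not name. The deposited gene lengths were used by the authors for FPKM, and deposited coordinates of the 10 genes equal those of GENCODE M21.

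From the counts, TMM factors (edgeR 4.0.16, R 4.3.3) of 0.964 and 1.04 scaled the libraries. The quasi-likelihood test of edgeR could not be fitted, for want of replicates. A 2-sided exact binomial test (scipy 1.17.1) was run on the 17363 genes with 10 or more reads in all, Benjamini-Hochberg adjusted over all of them. It compares the 2 libraries by their reads, never the genotypes. Log2 ratios carry a prior count of 2. Intervals (Clopper-Pearson for ratios, Poisson for levels) have a level of 95%, and cover counting error only, since reads were not tied to single molecules by identifiers. Ratios of 2 genes have intervals from the counting variance. A count of 0 allows 3 reads. The script was tested on simulated data.

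The 10 genes, the 11 lists of partners and targets, the 11 cell type marker lists, the 10 pairs and the motifs were chosen with earlier results of these data known. The text names the 10 genes, the partner in each pair, the called genes of each list (the 4 with the largest ratios among those with at least 100 reads in 1 library) and the gene with the most reads, overlapping loci with at least 10 reads, marker genes and Foxp3. Other genes, and called genes with fewer reads, were named after their values were seen, and the comparison with all transcription factor genes was added then too. A few genes of the lists are not reported here by name. Alternatives changed the scaling, the minimum of reads, the prior count, the fold and the assumed spread.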

Additional observations from a re-analysis of the deposited data

How the results depend on the processing

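No paired analysis was possible because each genotype has 1 library, and no library could be left out. None of the 9 tested genes changed direction under the scalings and prior counts tried. The calls of Zeb2 and Lef1 rest on the spread that is assumed between samples. With a biological coefficient of variation of 0.4 in edgeR's exact test 0 of the 10 genes were called higher and 0 lower. Of the partner and target genes 0 were called higher and 2 lower, beside 0.495% and 0.449% of all genes tested. With a coefficient of 0.2 both Zeb2 and Lef1 were called, and 3 partner and target genes were called higher and 16 lower, in place of 7 and 22. Of all genes tested 3.33% were then called higher and 3.09% lower. At 1.5-fold, 3 of the 10 genes were called higher and 4 lower, with 14 partner and target genes higher and 27 lower. Over all genes tested 10.5% were called higher and 10.6% lower at that fold. At 4-fold, 0 of the 10 were called higher and 1 (Lef1) lower, beside 2.87% and 2.35% of all genes. Scaling to the summed reads of the T cell markers, added after the data were seen, moved the median of all genes tested from 0.0035 to 0.42, with 14.2% of them called higher and 3.97% lower. Under it 3 of the 10 genes were called higher and 1 lower, 14 partner and target genes were called higher and 16 lower, and the median of the 9 genes was -0.12. Total counts moved the median of all genes to 0.11. Depth limits Eomes, with 3 and 0 reads, and the antisense loci.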
